A study of Mus musculus with 3 samples.

Results

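Interferon-stimulated genes were described in 3 tumors of TH-MYCN mice, a neuroblastoma model. The list held 44 genes that interferons are known to induce, picked for that property with earlier results of these data known. Of these, 43 were measured among the 31053 gene symbols of each library, and Mx2 was not analysed here. The mice were heterozygous for a transgene in which the tyrosine hydroxylase promoter drives human MYCN in the sympathetic nervous system. They were studied at 62 days (tumor 1), 79 days (tumor 2) and 63 days (tumor 3), with 1 tumor per mouse, as a single untreated group with no normal tissue beside it. Whole tumors were dissociated and profiled by droplet single-cell RNA-seq, in which each captured mRNA is counted as a unique molecular identifier (UMI) at its 3′ end. Cell classes take the suffix "-like" because they were named from marker genes.

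Interferons are secreted proteins that cells release on sensing viral or misplaced nucleic acid, and T and NK cells also release interferon gamma when activated. Type I and type III interferons signal through receptors and Janus kinases to a transcription factor complex that includes Stat2 and Irf9 and binds the interferon-stimulated response element (ISRE), whereas interferon gamma acts mainly at gamma-activated sites (GAS). The induced genes include membrane proteins that block virus entry or release, enzymes that destroy or modify nucleic acid, sensors that widen the alarm, GTPases that attack intracellular pathogens and feedback inhibitors. In tumors the same program is followed as a sign of interferon exposure, although several members are also expressed at a high level by certain cell types without it.

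The promoters of the members were searched first, since the list is defined by a shared way of induction. RefSeq promoter windows (GRCm38.p6, from 250 bases before to 50 bases after the start of transcription) were matched for 35 of the 44 listed genes. The ISRE-type pattern, GAAA followed by any 2 bases and GAAA again, on either strand, was present in 19 of them (54.3%), compared with 1079 of all 27025 genes (3.99%). The GAS-type pattern TTCNNNGAA was present in 10 of the 35 (28.6%) and in 2582 of all genes (9.55%). By role, the ISRE-type pattern was found in 5 of 6 interferon-inducible GTPases, 3 of 4 membrane restriction factors, 6 of 12 antiviral effectors, 2 of 3 nucleic acid sensors, 1 of 4 transcription factors and 2 of 6 other members. These are matches of letters, and whether any of them is bound in these cells was not measured.

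These 5 promoters are printed because the results turn on their genes, namely Ifit1 and Isg15 as effectors found in few cells, Oas3 and Ifitm2 as members higher in neutrophil-like cells, and Bst2 as the leading member of plasmacytoid dendritic-like cells. Each run covers positions −140 to −31 from the start, 5′ to 3′ on the gene's strand (plus for Ifit1, minus for the others), and capitals mark ISRE-type matches on either strand. The windows lie at chr19:34640749-34640858, chr4:156200849-156200958, chr5:120777690-120777799, chr7:140955992-140956101 and chr8:71537503-71537612, in the order printed, upstream of the genes' first exons.
Ifit1: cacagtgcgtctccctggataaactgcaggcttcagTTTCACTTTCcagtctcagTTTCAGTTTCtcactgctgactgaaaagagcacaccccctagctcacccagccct
Isg15: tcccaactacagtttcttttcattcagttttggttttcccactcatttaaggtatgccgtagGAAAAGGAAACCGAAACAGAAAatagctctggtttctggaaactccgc
Oas3: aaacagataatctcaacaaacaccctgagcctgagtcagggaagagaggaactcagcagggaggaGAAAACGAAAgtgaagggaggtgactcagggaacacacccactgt
Ifitm2: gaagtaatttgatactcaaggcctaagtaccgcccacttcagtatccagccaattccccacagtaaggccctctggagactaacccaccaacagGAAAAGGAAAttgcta
Bst2: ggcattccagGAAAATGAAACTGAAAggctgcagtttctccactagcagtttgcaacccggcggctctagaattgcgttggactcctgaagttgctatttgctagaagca
Ifit1 carried separate matches at −104 to −95 and −85 to −76, and Isg15 carried 3 overlapping matches between −78 and −57. The Bst2 matches overlapped each other and a GAS-type match at −136 to −128. Ifitm1, which stood beside Ifitm2 in neutrophil-like cells, had no ISRE-type match in its window.

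**Figure D1:**
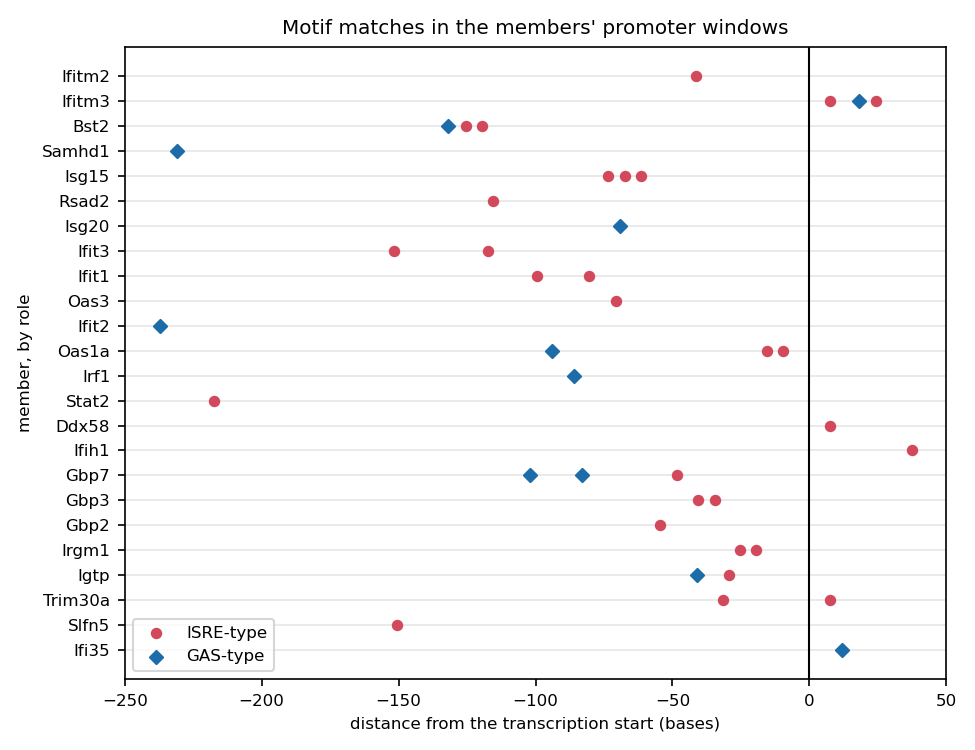
Position of ISRE-type (red circles) and GAS-type (blue diamonds) matches in the promoter windows of the 24 members with a match, as the distance in bases of the middle of the match from the start of transcription (x axis), with members ordered by role (y axis). Trim30a has windows at 2 starts. Among the ISRE-type matches that of Stat2 lay farthest upstream, and all others lay between −156 and 42 bases.

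The 3 libraries held 3257, 4327 and 6038 barcodes, of which 1914, 1221 and 2515 were kept (5650 cells), with a median of 4282.5, 1594 and 1816 UMIs per kept cell. The kept cells of tumors 1 and 2 shared 3 barcodes, those of tumors 2 and 3 shared 1, and those of tumors 1 and 3 shared 0. Tumor-like cells, named from sympathoadrenal genes, made up 469, 944 and 2090 cells. The classes against which the members are set below carried their defining markers: all 9 neutrophil markers, 7 of 7 classical monocyte markers, 12 of 12 macrophage markers and 8 of 8 endothelial markers. The nonclassical monocyte-like cells came from 2 subclusters, which passed 9 of 9 and 7 of 9 markers. The plasmacytoid dendritic-like cells also passed for a part of the conventional dendritic markers, and the CAF-like cells (cancer-associated fibroblasts) for all 6 mesothelial markers. A group of 185 mononuclear cells of low depth stayed unnamed and entered no comparison. Levels are UMIs of a gene in the summed cells of a class in a tumor, scaled to a total of 1000000 UMIs (CPM), and since each molecule is counted once at its end, they do not scale with gene length. Sums with under 10 cells were left out, which left 2 tumors for classical monocyte-like, plasmacytoid dendritic-like and erythroid-like cells and 1 for NK cell-like cells. The Ifitm, Ifit, Oas, Gbp and Ifi200 genes have close paralogs, and their levels are uncertain to the extent that reads matched more than 1 copy.

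Neutrophil-like cells had the highest mean summed level of the members and tumor-like cells the lowest. In neutrophil-like cells the 43 members together took 9889, 6401 and 5488 CPM in tumors 1, 2 and 3 (7259 ± 2323, SD, n = 3). In tumor-like cells the sum was 978, 284 and 118 CPM (460 ± 456, n = 3), so that the ranges of these classes did not overlap. On the authors' corrected counts, classical monocyte-like cells had the highest mean instead, with 9371 CPM beside 8825 CPM in neutrophil-like cells, and tumor-like cells had 902 CPM. Classical monocyte-like cells followed the neutrophil-like cells with 8048 CPM in tumor 1 and 5776 CPM in tumor 3, but the latter dropped to 3186 CPM without 1 of its 16 cells, which is described further on. CAF-like cells reached 4391 ± 1391 CPM, nonclassical monocyte-like cells 3501 ± 1236 CPM, endothelial-like cells 2671 ± 564 CPM and macrophage-like cells 1851 ± 1044 CPM (each SD, n = 3). Neighbors among these 4 classes overlapped, so that the steps between them are not larger than the spread between tumors. Plasmacytoid dendritic-like cells had 4856 and 1838 CPM (n = 2). The lymphoid classes were lower, at 1473 ± 1003 CPM in T cell-like cells, 694 ± 615 CPM in B cell-like cells (n = 3) and 1088 CPM in the NK cell-like cells of tumor 1.

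**Figure D2:**
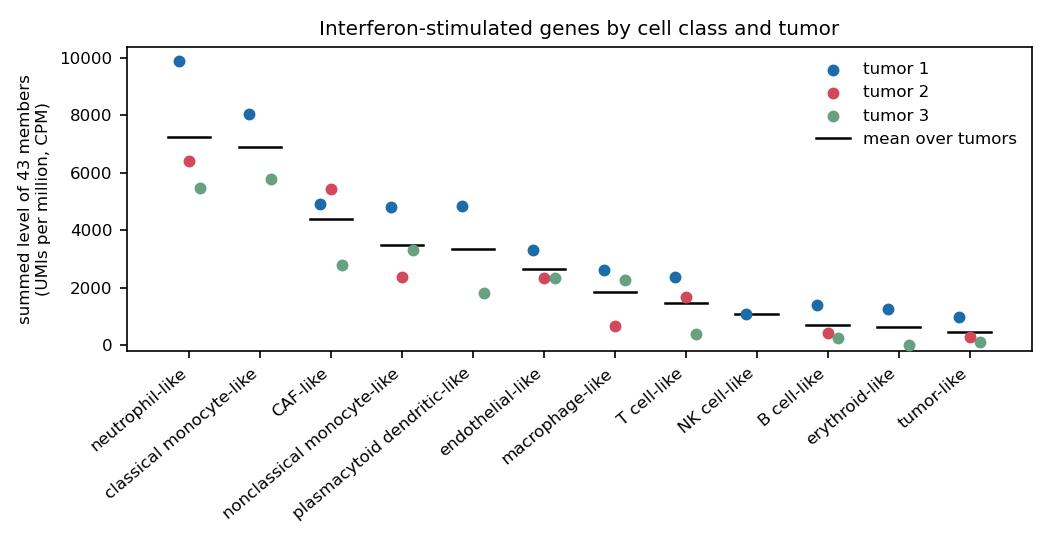
Summed level of the 43 measured members in each cell class (x axis) in CPM (y axis, linear from 0). Points are tumors, and black lines are means over the tumors with at least 10 cells of the class; neutrophil-like cells lie between 5488 and 9889 CPM and tumor-like cells between 118 and 978 CPM.

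The sum rested mainly on 4 genes. Ifitm1, Ifitm2, Ifitm3 and Bst2, the membrane restriction factors, gave on average 78.9% of the member UMIs in neutrophil-like cells, 66.4% in CAF-like cells, 65.5% in endothelial-like cells, 65.3% in nonclassical monocyte-like cells and 64.2% in plasmacytoid dendritic-like cells. Their share was smaller in T cell-like (30.0%) and B cell-like cells (24.4%), and it was 5.78% in NK cell-like cells. Members differed in the class that had their highest mean level. Classical monocyte-like cells had the highest mean level for 13 members, neutrophil-like and plasmacytoid dendritic-like cells for 6 each, NK cell-like cells for 5 and endothelial-like cells for 4. Without the 1 cell of tumor 3 mentioned above, the classical monocyte-like cells led for 7 members, the neutrophil-like for 8, the plasmacytoid dendritic-like for 7 and the NK cell-like for 6. The NK cell-like values come from tumor 1 alone, and the leads for Ifit2 and Usp18 there rest on 2 UMIs each (12.6 CPM), fewer than the 3 counts taken as the floor.

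**Figure D3:**
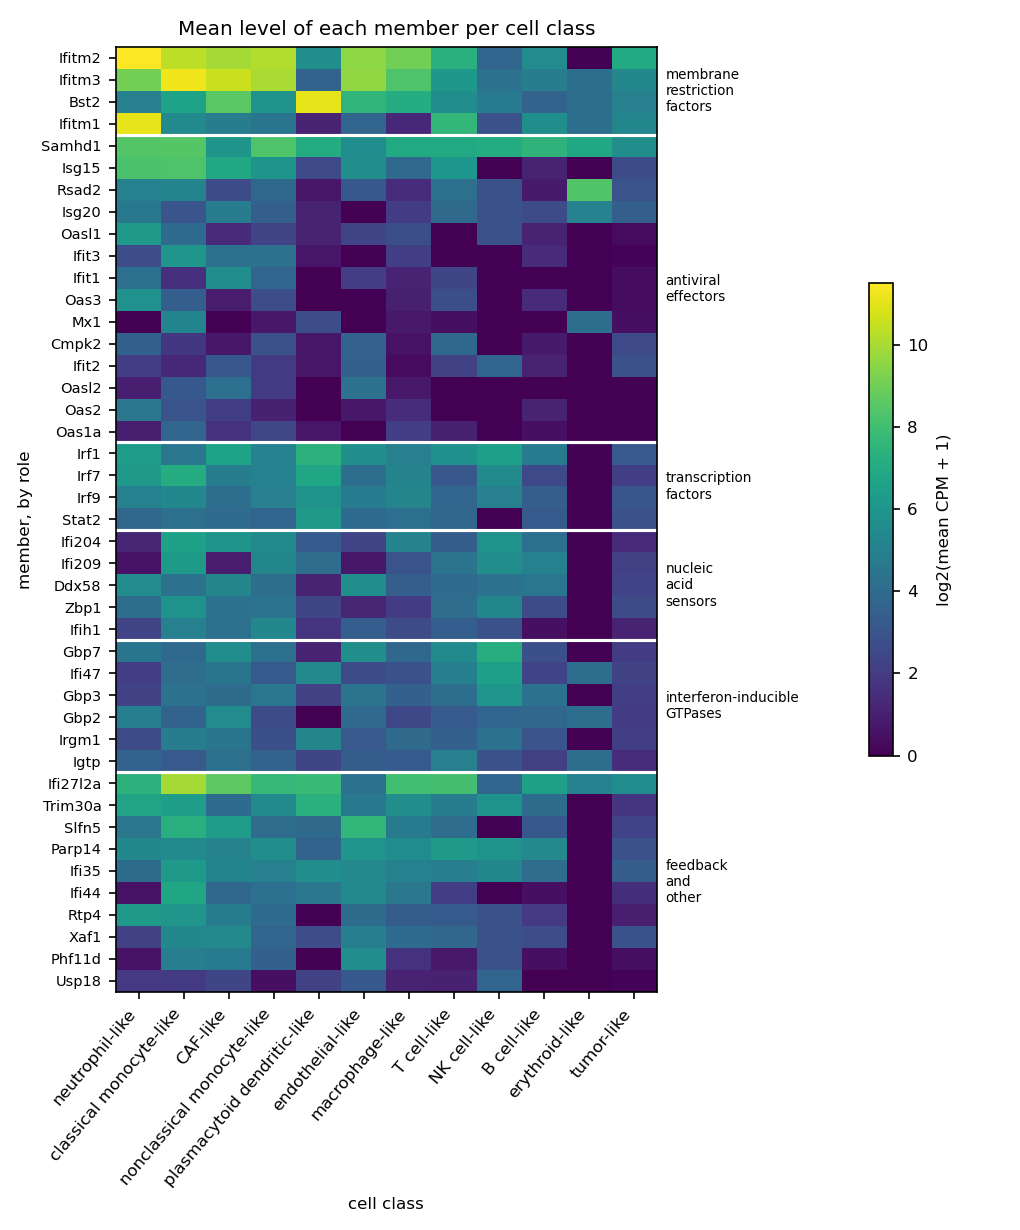
Level of each of the 43 members (rows, by role) in each cell class (columns), as the mean over tumors on a log color scale of CPM. The membrane restriction factors fill most classes, while most antiviral effectors lie below 50 CPM outside myeloid and CAF-like cells.

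The membrane restriction factors were the most abundant members. Ifitm2 and Ifitm3, which sit in endosomal membranes and block the fusion of entering viruses, ranked first and second by mean level over the classes, with 671 and 572 CPM. Ifitm2 (chromosome 7, 140954837 to 140955987, minus strand, GRCm38) stood at 3287, 2855 and 2553 CPM in neutrophil-like cells, above every other class and tumor. It was 1503 and 1126 CPM in classical monocyte-like cells, 1305, 1083 and 1131 CPM in nonclassical monocyte-like cells and 589, 198 and 795 CPM in macrophage-like cells. CAF-like cells had 803, 1543 and 633 CPM, and endothelial-like cells 639.9, 792 and 817 CPM. With every cell thinned to 500 UMIs, 72.8%, 58.9% and 68.2% of neutrophil-like cells held an Ifitm2 UMI (95.8%, 91.1% and 90.9% unthinned), against 1.05%, 6.67% and 0% of B cell-like cells. The median depth was 4282.5, 1559 and 1461 UMIs in B cell-like cells and 2592, 2208.5 and 2072 UMIs in neutrophil-like cells.

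Ifitm3 showed another order of classes than its neighbor Ifitm2. It was highest in classical monocyte-like cells, with 3299 CPM in tumor 1 and 1538 CPM in tumor 3. CAF-like cells had 1763, 1848 and 1011 CPM, nonclassical monocyte-like cells 1865, 375 and 916 CPM, and endothelial-like cells 1112, 687 and 595 CPM. Neutrophil-like cells had only 749, 633 and 269 CPM of Ifitm3, and in plasmacytoid dendritic-like cells it was 23.2 and 0 CPM. Ifitm1, the family member placed mainly at the cell surface, was far higher in neutrophil-like cells than in the other myeloid classes, at 2792, 1964 and 1635 CPM. In nonclassical monocyte-like cells it was 31.8, 17.8 and 14.1 CPM, in classical monocyte-like cells 77.7 and 12.1 CPM, and in macrophage-like cells 4.44, 0 and 0 CPM. Its other high values came from few cells: in T cell-like cells of tumor 2 all 26 UMIs lay in 1 cell, and in B cell-like cells of tumor 1 132 of 134 UMIs did.

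Bst2 (tetherin, chromosome 8, 71534255 to 71537456, minus strand), which holds budding virus at the cell surface, was the leading member of plasmacytoid dendritic-like cells. Its level there was 3189.8 CPM in tumor 1 and 1058 CPM in tumor 3, and 71.6% and 18.2% of the cells held a UMI after thinning (100% and 54.5% unthinned). The next classes were CAF-like cells with 396, 527 and 189 CPM and endothelial-like cells with 315, 115 and 122 CPM. Neutrophil-like cells, the highest for Ifitm1 and Ifitm2, had 62.5, 7.36 and 22.4 CPM of Bst2. B cell-like cells had 35.4, 0 and 0 CPM, with 2.11%, 0% and 0% of cells positive after thinning.

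Among the antiviral effectors, Samhd1 behaved unlike the other 13. Samhd1 hydrolyses deoxynucleotides and so starves reverse transcription, and it was present in most immune classes. It stood at 613, 279.6 and 134 CPM in neutrophil-like cells, 494, 249.9 and 211 CPM in nonclassical monocyte-like cells, and 281, 159.8 and 92.9 CPM in B cell-like cells. The other effectors were low in most classes. Isg15, a ubiquitin-like protein that is conjugated to other proteins, was the highest of them, with a mean of 77.0 CPM over the classes, and the remaining ones ranged down to 2.11 CPM for Oas1a. Isg15 stood at 482, 118 and 269 CPM in neutrophil-like cells, from 347, 16 and 12 UMIs. Counting error alone gives 95% Poisson intervals of 432 to 535, 67.3 to 191 and 139 to 469.5 CPM for these values. The intervals of the last 2 overlap, and the difference between these 2 values was not tested. CAF-like cells had 79.0, 145 and 116 CPM of Isg15, and tumor-like cells 12.6, 2.21 and 0.758 CPM.

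Ifit1, an RNA-binding protein that blocks translation of viral mRNA, was seen in few places. CAF-like cells had 45.9, 7.64 and 91.3 CPM of it, and the 15 UMIs behind the last value came from 1 cell. Neutrophil-like cells had 44.4, 7.36 and 0 CPM. Mx1, a GTPase that traps influenza virus and related viruses, gave 51 UMIs in all kept cells, and its highest mean was in classical monocyte-like cells (11.3 and 60.5 CPM). Rsad2 (viperin) stood at 75.0, 0 and 22.4 CPM in neutrophil-like cells. The oligoadenylate synthetase Oas3 and the related Oasl1 were led by neutrophil-like cells, with 91.6, 51.5 and 22.4 CPM and with 129, 44.1 and 44.8 CPM.

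The transcription factors that carry the interferon signal were led by plasmacytoid dendritic-like cells for Irf1, Irf9 and Stat2. Irf7, the factor that amplifies type I interferon production, had its highest mean in classical monocyte-like cells, at 79.1 and 194 CPM, but 12 of the 16 UMIs behind the second value lay in 1 cell. In plasmacytoid dendritic-like cells Irf7 was 143 and 74.2 CPM. Irf1 was 145 and 186 CPM there, and 122, 29.4 and 89.6 CPM in neutrophil-like cells. Stat2 was 90.3 and 55.7 CPM in plasmacytoid dendritic-like cells (74 and 3 UMIs) and did not exceed 29.0 CPM in any other class of a tumor.

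Nucleic acid sensors were led by classical monocyte-like cells for 3 of the 5 members. These were Ifi204, a DNA-binding protein of the Ifi200 family, with 131 and 60.5 CPM, Ifi209 with 93.7 and 60.5 CPM, and Zbp1, a sensor of Z-form nucleic acid, with 45.7 and 72.7 CPM. In tumor 3, 4 of the 5 UMIs each of Ifi204 and Ifi209 and all 6 of Zbp1 lay in 1 cell, without which Ifi204 and Ifi209 were 13.7 CPM each. Ddx58 (RIG-I, a sensor of viral RNA ends) was instead highest in endothelial-like cells, at 74.6, 28.6 and 53.4 CPM. Ifi209 was near 0 in neutrophil-like cells, with 1.39, 0 and 0 CPM, as was Ifi204 with 4.16, 0 and 0 CPM. The fifth sensor, Ifih1 (MDA5), which detects long double-stranded RNA, was highest in nonclassical monocyte-like cells, at 33.0, 29.8 and 56.4 CPM.

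The interferon-inducible GTPases, which interferon gamma induces strongly, had their highest mean in NK cell-like cells for 3 of the 6 members. In the 32 NK cell-like cells of tumor 1, Gbp7 was 145 CPM, Ifi47 88.0 CPM and Gbp3 62.9 CPM, and the GTPases together took 333 CPM. There was no second tumor with 10 NK cell-like cells, so these values have no replicate. T cell-like cells of tumor 1 had 92.9 CPM of Gbp7 and 51.3 CPM of Ifi47. In tumor-like cells Gbp7 was 6.76, 2.21 and 0.505 CPM.

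Of the remaining members, Ifi27l2a, a mitochondrial protein, was the most abundant. It stood at 1140.4 and 811 CPM in classical monocyte-like cells and 642, 412 and 146 CPM in CAF-like cells. In T cell-like cells it was 816 CPM in tumor 1 but 12.8 and 0 CPM in tumors 2 and 3, and in B cell-like cells 277, 0 and 0 CPM. Slfn5, a member of the Schlafen family, was highest in endothelial-like cells, with 205, 258 and 122 CPM. Trim30a stood at 204 and 111 CPM in plasmacytoid dendritic-like cells and at 214, 51.5 and 44.8 CPM in neutrophil-like cells. Usp18, the protease that removes Isg15 and damps the type I receptor, gave 58 UMIs in all kept cells.

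Levels were compared between classes on counts summed per tumor and class, by the quasi-likelihood test of edgeR, with Benjamini-Hochberg adjustment over the 8048 genes that passed its filter. The members had been left out of the genes used for clustering, so that no class was formed by their levels. The filter on low counts could be passed through a single sum, and 31 of the 43 measured members passed it. The 12 that did not were Ifit2, Usp18, Ifih1, Xaf1, Oas1a, Oasl2, Phf11d, Igtp, Oas2, Irgm1, Mx1 and Cmpk2. Medians below are over the tested members and are descriptions. Counts at an unadjusted p under 0.05 are descriptions too, since the share of all genes at that threshold was not counted. Each tumor can also be entered as a replicate block, since its classes come from the same animal, and that value is given where it changed a call.

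The first comparison asked which members set neutrophil-like cells apart from the monocyte and macrophage subsets. In neutrophil-like cells 6 members were higher and 1 was lower. The 6 came from membrane restriction factors (Ifitm1, Ifitm2), antiviral effectors (Isg15, Oasl1, Oas3) and Rtp4, a chaperone of membrane receptors. Of all genes tested, 7.59% were called higher and 3.78% lower. The median log2 fold change was 0.95 over the tested members and 0.10 over all genes.

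Ifitm1 had the largest difference, a log2 fold change of 7.38 ± 1.23 (SE; edgeR adjusted p = 0.000185), and its lowest neutrophil-like sum of 1635 CPM lay far above the highest subset value of 77.7 CPM. Ifitm2 was higher by 1.92 ± 0.51 on the log2 scale (edgeR adjusted p = 0.0141), again with no overlap between the groups. Oasl1 was higher by 4.10 ± 0.65 (edgeR adjusted p = 0.000176), its subset values reaching 24.2 CPM in the classical monocyte-like cells of tumor 3. For Oas3 the log2 fold change was 3.89 ± 0.72 (edgeR adjusted p = 0.00088), and the groups were parted only narrowly, by 22.4 CPM from 1 UMI in neutrophil-like cells of tumor 3 and 20.2 CPM in classical monocyte-like cells of tumor 1. These 4 members were higher in each of the 3 tumors. Oasl1 and Oas3 passed the filter on low counts only through the neutrophil-like sum of tumor 1, in the class where they were then called higher. With no filter on low counts they kept these calls.

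Isg15 was higher in neutrophil-like cells by 2.65 ± 0.75 on the log2 scale (edgeR adjusted p = 0.0212), but its groups overlapped. In the subsets Isg15 was 15.5, 35.7 and 130.4 CPM in nonclassical monocyte-like cells, 32.6, 0 and 10.1 CPM in macrophage-like cells, and 48.0 and 593 CPM in classical monocyte-like cells. The value of 593 CPM came from 1 cell, and without that cell the fold change was 3.51 (edgeR adjusted p = 0.00205). After thinning, 13.8%, 5.36% and 9.09% of neutrophil-like cells held an Isg15 UMI, against 0.53%, 0% and 0% of the B cell-like cells, which were deeper in tumor 1 only. The Isg15 call rested on tumor 1: without it the fold change was 1.24 (edgeR adjusted p = 0.351).

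Rtp4 was the weakest of the 6. Its level in neutrophil-like cells was 165, 36.8 and 22.4 CPM, from 119, 5 and 1 UMIs, and its log2 fold change 2.69 ± 0.68 (edgeR adjusted p = 0.00982). It was higher in 2 of 3 tumors, and without tumor 1 the value was 0.51 (edgeR adjusted p = 0.879). Ifi44, a cytoplasmic protein of the interferon response, was the member lower in neutrophil-like cells, with 1.39, 0 and 0 CPM from a total of 1 UMI. In the subsets it reached 157 CPM in classical monocyte-like cells, 41.4 CPM in macrophage-like cells and 23.8 CPM in nonclassical monocyte-like cells. The fitted log2 fold change of −4.29 ± 1.25 (edgeR adjusted p = 0.0245) depends on the prior count, since 2 of the 3 sums were 0. Without tumor 1, the count of members called higher in neutrophil-like cells was 1 in place of 6. Only 18 members were then tested, and Oasl1 and Oas3 were not among them. Without any 1 of the tumors Ifi44 was no longer called lower.

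**Figure D4:**
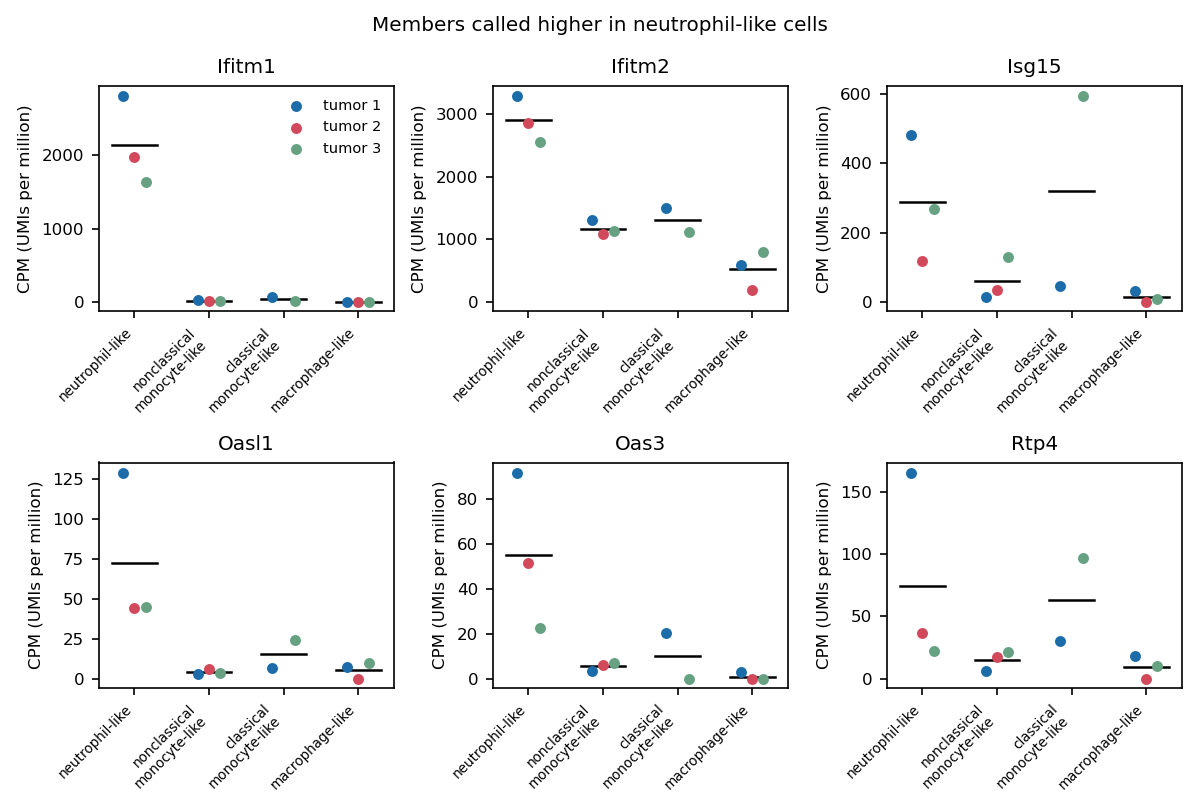
Level (CPM, y axes, linear from 0, scaled per gene) of the 6 members called higher in neutrophil-like cells, in these cells and in the 3 monocyte and macrophage subsets. Points are tumors and lines are means. Ifitm1 and Ifitm2 are separated in all tumors. Isg15 and Rtp4 overlap with the classical monocyte-like cells of tumor 3, and Isg15 also with the nonclassical monocyte-like cells of that tumor.

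With the tumor as a replicate block, 13 members were higher (13.7% of all genes) and 3 lower (7.58%). The members added by the block were Trim30a (1.41), Gbp7 (1.57), Ddx58 (1.81), Isg20 (2.44), Rsad2 (2.49), Gbp2 (2.97) and Ifit1 (3.26) on the higher side and Ifi209 (−4.39) and Ifi204 (−3.73) on the lower side, as log2 fold changes. The members on the lower side were thus 2 Ifi200 sensors and Ifi44, and those on the higher side included the RNA sensor Ddx58 and the effectors Ifit1, Rsad2 and Isg20. RNA of the other class was present in both directions. The 8 general monocyte and macrophage markers summed to 4136, 2170.5 and 1344 CPM in neutrophil-like cells, with 0, 2 and 2 of them at 0. The 9 neutrophil markers summed to 215, 119 and 49.3 CPM in nonclassical monocyte-like cells and to 964 and 109 CPM in classical monocyte-like cells. The part of this RNA in the member levels was not tested.

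Within the monocyte and macrophage subsets no member was called in either direction. Nonclassical monocytes are the patrolling kind, classical monocytes the kind recruited from blood, and macrophage-like cells carried Apoe and complement genes. In edgeR's test 0 members were higher and 0 lower in classical monocyte-like cells against the other subsets, where 0.0746% and 0.0124% of all genes were called. At an unadjusted p under 0.05 there were 10 members higher, with edgeR adjusted p-values from 0.355 to 0.999. Among them were Isg15 (2.99 ± 0.92), Ifit3 (2.67), Slfn5 (2.65), Zbp1 (2.33) and Ifi209 (2.31). All UMIs of Ifit3 and Zbp1 behind the tumor 3 sum lay in 1 cell, described below. The share of all genes under this unadjusted threshold was not counted, so the 10 cannot be set against the shares above. DESeq2 also called 0 in each direction, where it called 0.0249% of all genes higher and 0.186% lower, with 5 members higher at an unadjusted p under 0.05. The median log2 fold change of the tested members was 1.08, compared with −0.04 for all genes. With the replicate block 1 member was called, Slfn5, at 2.62 ± 0.61 (edgeR adjusted p = 0.0247), where 0.646% of all genes were higher. Of its 10 UMIs in tumor 3, 6 lay in 1 cell, and without that cell its level there was 54.9 in place of 121 CPM.

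A single cell carried much of the pattern of classical monocyte-like cells in tumor 3. This cell held 245 of the 477 member UMIs of the 16 cells. All 49 UMIs of Isg15, all 10 of Ifit3, all 8 of Rtp4, all 6 of Zbp1 and all 5 each of Mx1 and Rsad2 lay in it, as did 47 of 67 UMIs of Ifi27l2a, 40 of 127 of Ifitm3, 12 of 16 of Irf7 and 11 of 13 of Ifi44. Without it Isg15 dropped from 593 to 0 CPM, where 3 counts would be 41.2 CPM. Ifi27l2a went from 811 to 275 CPM, Irf7 from 194 to 54.9 CPM and Ifi44 from 157 to 27.5 CPM. Without this cell 29 members passed the filter on low counts in place of 31. Of these, 0 were called in classical monocyte-like cells, where 0.0869% of all genes were higher and 0.0124% lower, and 4 had an unadjusted p under 0.05. Their median log2 fold change was 0.84, which is not over the same members as the 1.08 above.

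Macrophage-like cells were at the other end of the same comparisons. edgeR called 0 members higher and 0 lower (1.65% and 0.0621% of all genes), and DESeq2 called 0 (1.7% and 0.0746%). At an unadjusted p under 0.05, 5 members were lower, namely Ifit3 (−2.88), Ifi209 (−2.59), Zbp1 (−2.50), Isg15 (−2.49) and Ifitm3 (−2.25), with edgeR adjusted p-values from 0.397 to 0.523. With the replicate block Ifi209 (−2.98, edgeR adjusted p = 0.0338) and Ifitm3 (−2.10, edgeR adjusted p = 0.0428) were lower, and 1.19% of all genes were. The member median was −0.74. In nonclassical monocyte-like cells edgeR called 0 members higher and 0 lower (0.162% and 0.174% of all genes), with 2 lower at an unadjusted p under 0.05, Slfn5 (−2.02) and Ifi44 (−1.78), and DESeq2 called 0 (0.149% and 0.335%).

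Plasmacytoid dendritic-like cells, the main producers of type I interferon in the body, were set against the mean of the other classes with 2 tumors. Here 5 members were higher, where 4.68% of all genes were. Bst2 was higher by 5.08 ± 0.64 on the log2 scale (edgeR adjusted p = 3.91e-06), and both of its sums lay above those of every other class. Stat2 was higher by 3.39 ± 0.70 (edgeR adjusted p = 0.00265), also without overlap. It passed the filter on low counts only through the tumor 1 sum of these cells, and without tumor 1 it was not tested. With no filter on low counts Stat2 kept its call. Irf7 was higher by 2.78 ± 0.72 (edgeR adjusted p = 0.0188) and Trim30a by 2.91 ± 0.81 (edgeR adjusted p = 0.0336), both with levels reached in neutrophil-like or classical monocyte-like cells of some tumor. Ifi44 was called at 2.95 ± 0.86 (edgeR adjusted p = 0.0467), but its levels were 45.2 and 0 CPM, and without tumor 1 the fitted value was −3.92. For Stat2, Irf7, Trim30a and Ifi44 a compared class had 0 UMIs in all of its sums, so the size of these fold changes depends on the prior count. With any 1 tumor left out, 1 or 2 members were called higher in these cells in place of 5.

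No member was called lower in plasmacytoid dendritic-like cells by edgeR, where 0.087% of all genes were, and 2 members had an unadjusted p under 0.05. A lower call was open to only 8 of the 31 tested members, since for the other 23 at least 1 compared class, mostly the erythroid-like or NK cell-like cells, had 0 UMIs in all of its sums, and none of the 3655 genes with such a class was called lower. Without the erythroid-like sums, an alternative chosen after seeing the data, 1 member, Ifitm2, was lower (0.252% of all genes). The members under an unadjusted p of 0.05 were Gbp2 and Ifitm3, and the replicate block gave both as lower (−6.59 and −3.76, where 1.06% of all genes were). DESeq2 called Ifitm3 and Ifitm2 lower (0.261% of all genes). The low Ifitm3 level stood beside a sum of 2262 and 1411 CPM for the monocyte and macrophage markers, 0 and 4 of the 8 being at 0. The member median was −0.36 and that of all genes 0.09.

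Endothelial-like cells had 5 members higher than the mean of the other classes, all in 3 of 3 tumors, where 12.1% of all genes were called higher. Slfn5 led with 3.90 ± 0.81 on the log2 scale (edgeR adjusted p = 0.000903), and its levels of 122 to 258 CPM overlapped those of classical monocyte-like cells (171 and 121 CPM) and of the CAF-like cells of tumor 1 (124 CPM). Ifi44 was higher by 3.23 ± 0.76 (edgeR adjusted p = 0.00313), with 68.3, 9.54 and 45.8 CPM. Ifitm2 was higher by 2.32 ± 0.55 (edgeR adjusted p = 0.00369) and Ifitm3 by 2.32 ± 0.64 (edgeR adjusted p = 0.012). Ddx58 was higher by 2.19 ± 0.70 (edgeR adjusted p = 0.0397). For each of the 5 except Ifitm3 a compared class had 0 UMIs in all of its sums, so the size of the fold change depends on the prior count. Against 12.1% of all genes, 5 of 31 tested members is near the background, so the values of the single members are what the comparison gives. edgeR called 0 members lower (0.547% of all genes) with 2 at an unadjusted p under 0.05, Isg20 and Samhd1, and here too a lower call was open to only 8 members. With the replicate block Samhd1 was lower (−1.62, where 2.04% of all genes were) and Gbp7 was added to the higher members (2.12, where 15.3% were). Without tumor 1, 2 members were called higher in place of 5. Without the erythroid-like and NK cell-like sums, chosen after seeing the data, Slfn5 and Ifi44 stayed called and Ifitm2 (0.91, edgeR adjusted p = 0.254), Ifitm3 (1.67, edgeR adjusted p = 0.102) and Ddx58 (1.66, edgeR adjusted p = 0.062) did not. Monocyte and macrophage markers summed to 1031, 687 and 76.3 CPM in endothelial-like cells.

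Tumor-like cells had low levels of nearly all members, but whether these were lower than the mean of the other classes could be tested for few of them. edgeR called 0 members higher and 0 lower, where 13.1% and 5.18% of all genes were called. For 24 of the 31 tested members a compared class had 0 UMIs in all of its sums, which leaves the mean of the other classes without a lower bound on the log scale, and none of the 3677 genes with such a class was called lower. A lower call was open to Bst2, Ifi27l2a, Ifi47, Ifitm1, Ifitm3, Rsad2 and Samhd1. Among all genes without such a class 9.54% were lower. Without the erythroid-like sums 11 members were lower (10.2% of all genes), and without the erythroid-like and NK cell-like sums 15 of the 22 members then tested were (15.7%). These 15 were Ddx58, Gbp7, Ifi204, Ifi35, Ifi44, Ifitm2, Ifitm3, Irf1, Irf7, Irf9, Isg15, Parp14, Slfn5, Stat2 and Trim30a, and both alternatives were chosen after seeing the data. The median log2 fold change of the tested members was −2.29, compared with 0.13 for all genes, and for the 24 members the fitted value depends on the prior count. At an unadjusted p under 0.05, 4 members were lower, namely Ifi47 (−2.73 ± 1.06, edgeR adjusted p = 0.0698), Ifitm3 (−2.47 ± 0.91, edgeR adjusted p = 0.0579), Samhd1 (−1.93, edgeR adjusted p = 0.104) and Bst2 (−1.84, edgeR adjusted p = 0.144). With the tumor as a replicate block 5 members were lower, Ifitm3 (−2.70), Ifi47 (−2.61), Ifi27l2a (−2.48), Bst2 (−2.15) and Samhd1 (−1.94), with adjusted p-values between 0.000389 and 0.0206, where 9.59% of all genes were lower. DESeq2 called 18 members lower, where it called 11.3% of all genes. The scaling mattered for all genes, with 1056 higher and 417 lower by TMM factors and 236 higher and 322 lower by RLE factors, and moved the median of all genes to −0.16. The member median was −2.49 with RLE factors, so it stayed below that of all genes.

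The member levels of tumor-like cells can be set beside RNA of genes that these cells should lack. S100a8, a neutrophil granule gene, was 52.2, 27.6 and 3.03 CPM in tumor-like cells, or 0.0968%, 0.0522% and 0.0216% of its level in neutrophil-like cells. Such shares differed between genes. In tumor 1 they were 0.101% for S100a9 and 1.22% for Retnlg, both neutrophil genes, 1.28% for Col1a1 of CAF-like cells and 6.31% for Cd3e of T cell-like cells. In tumors 2 and 3 each of these was at most 0.70%. The part of such RNA in the member levels was not tested. Ifitm2 in tumor-like cells was 139, 209 and 35.9 CPM, or 4.23%, 7.34% and 1.41% of its neutrophil-like level, and in tumor 2 it was found in 251 of 944 cells (26.6%; 8.79% after thinning). Ifitm3 was 99.5, 7.74 and 11.4 CPM, or 5.34%, 2.06% and 1.24% of its nonclassical monocyte-like level, beside 5.48%, 2.49% and 2.70% for the macrophage gene Lyz2. Bst2 was 83.1, 2.21 and 8.34 CPM, and Isg15 was at or under 12.6 CPM in each tumor.

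The antiviral effectors were also counted cell by cell, leaving out Samhd1. Of the 5650 kept cells, 4906 (86.8%) held no UMI of the 13 effectors. Only 120 cells (2.12%) held 3 or more effectors, and these cells carried 1401 of the 2418 effector UMIs (57.9%). They were 24 of 116 CAF-like cells (20.7%, exact binomial 95% interval 13.7 to 29.2%, counting error only), 27 of 211 classical monocyte-like cells (12.8%, 8.60 to 18.1%) and 32 of 317 neutrophil-like cells (10.1%, 7.01 to 14%). In tumor-like cells it was 1 of 3503 (0.0285%). Depth moved with these shares. The median depth of all CAF-like cells was 9917 UMIs and of the 24 with 3 or more effectors 36904 UMIs, whereas in neutrophil-like cells it was 2442 and 2957.5 UMIs, and its part in the shares was not tested.

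Most of these cells came from tumor 1, which gave 22 of the 24 CAF-like, 25 of the 27 classical monocyte-like and 31 of the 32 neutrophil-like cells. Tumor 1 had also given 68 of the 116 CAF-like, 186 of the 211 classical monocyte-like and 239 of the 317 neutrophil-like cells in all. The order of the classes was not the same in each tumor: CAF-like cells led in tumor 1 with 32.4%, but in tumor 2 they had 7.69% beside 11.1% in classical monocyte-like cells (1 of 9 cells), and in tumor 3 2.86% beside 6.25% in classical monocyte-like, 6.15% in nonclassical monocyte-like and 4.55% in neutrophil-like cells. The cell with the broadest set was a classical monocyte-like cell of tumor 1 with 12 effectors and 61 effector UMIs among 10895. A CAF-like cell held 8 effectors with 95 effector UMIs among 49264, and a neutrophil-like cell of tumor 1 held 8 with 36 among only 2740. Effector RNA was concentrated to different degrees. For Ifit1, 149 UMIs lay in 51 cells and the top 10 cells held 61.7% of them, and for Ifit3, 113 UMIs lay in 48 cells with 63.7% in the top 10. Isg15, with 912 UMIs in 292 cells, had 24.5% in its top 10 cells.

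**Figure D5:**
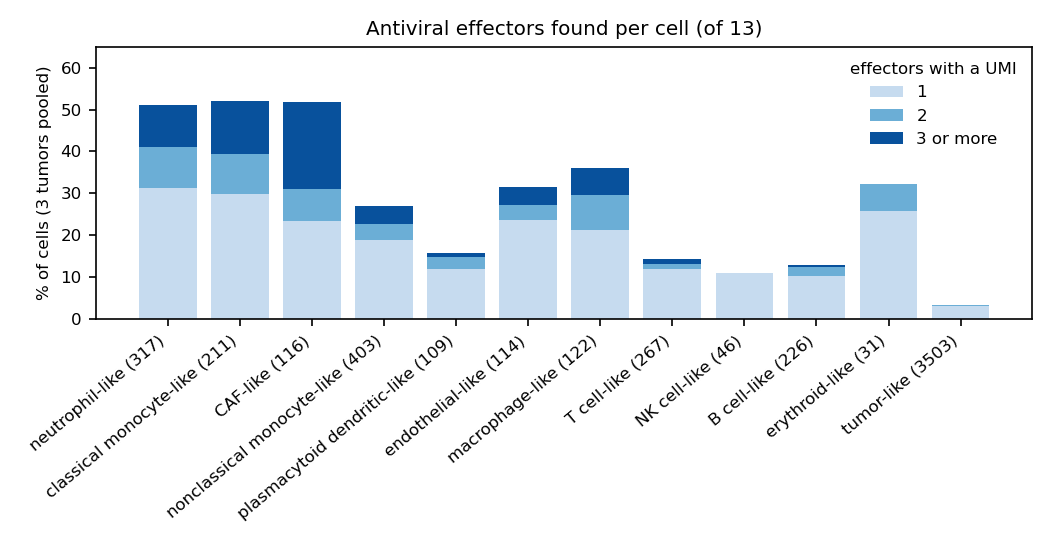
Percentage of cells (y axis, linear from 0) of each class (x axis, number of cells in parentheses) that held UMIs of 1, 2 or 3 or more of the 13 antiviral effectors, with the 3 tumors pooled and no thinning. CAF-like cells have the largest pooled share with 3 or more (20.7%), which they lead in tumor 1 only, and 1 of 3503 tumor-like cells has as many.

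Tumor 1 had the highest level for most members in most classes. Among members with at least 10 UMIs in a class, tumor 1 was highest for 26 of 30 in neutrophil-like cells, 25 of 27 in tumor-like cells, 21 of 38 in CAF-like cells, 19 of 30 in macrophage-like cells and 18 each of 24 in B cell-like, 28 in T cell-like and 25 in endothelial-like cells. Over all genes, tumor 1 was highest for 31.9% to 37.6% in these classes. In nonclassical monocyte-like cells tumor 1 was highest for 12 of 37 members, close to the 30.9% of all genes. Samhd1, Ifi27l2a and Ifi35 were highest in tumor 1 in 8 of 8 classes. RNA of other classes stood beside this order in tumor-like cells, where the monocyte and macrophage markers summed to 826, 55.3 and 152 CPM, the T cell markers to 245, 13.8 and 11.6 CPM, the B cell markers to 412, 13.8 and 33.9 CPM and the plasma cell markers to 7842, 55.3 and 65.4 CPM, and its part in the order was not tested. Tumor 1 had the highest median of UMIs per kept cell and the most UMIs in kept cells (12628163, against 2740537 and 5215401). Over all barcodes it had the fewest (17319241, against 21829496 and 20041044). Its sums were the deepest in each of these classes except tumor-like cells, for example 847165, 25033 and 32291 UMIs in B cell-like cells. Its tumor-like cells had the lowest median (934, against 1545 and 1818.5 UMIs). The part of depth in the order was not tested. The mitochondrial share of tumor 1 was the lowest of the 3 tumors in all 8 classes, for example 5.91%, 7.75% and 8.93% in B cell-like cells. With 1 mouse per age, the mouse, its age and the library cannot be told apart.

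Genes upstream of the members came from a list of ligands, receptors, kinases, inhibitors and inducers. Ifna1, Ifna2, Ifna4, Ifna5, Ifne, Ifnk and Ifnl3 had 0 UMIs in kept cells, and Ifnb1 and Ifnl2 had 1 UMI each. A count of 0 allows up to 3 UMIs, so these counts speak only of what was captured at this depth. Ifng was found mainly in NK cell-like cells of tumor 1, at 163 CPM, compared with 2.14, 0 and 27.1 CPM in T cell-like cells. The receptor chain Ifngr1 was 1163 CPM in the same NK cell-like cells and 632, 309 and 233 CPM in nonclassical monocyte-like cells.

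Of 20 tested pathway genes, 6 were lower in tumor-like cells against the other classes and none was higher, in 3 of 3 tumors each and with edgeR adjusted p-values from 0.012 to 0.0421 (5.18% of all genes were lower and 13.1% higher). With 1 tumor left out, 1, 0 and 2 of them were lower, and without the erythroid-like sums 13 were. The 6 were the receptor chains Ifngr1 (−2.81), Ifnar2 (−2.49) and Ifnar1 (−2.30), the kinase Jak1 (−1.80), the adaptor Myd88 (−3.05) and the inhibitor Socs3 (−2.56), as log2 fold changes. Ifngr1 in tumor-like cells was 73.4, 10.5 and 6.32 CPM, and Ifnar1 24.2, 12.7 and 12.1 CPM. Neutrophil-like cells had Socs3 at 516, 419 and 426 CPM, higher than the monocyte and macrophage subsets by 1.57 on the log2 scale (edgeR adjusted p = 0.032), as the sole pathway gene of 20 called there (7.59% of all genes were higher). With any 1 tumor left out, 0 pathway genes were called higher in neutrophil-like cells.

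In plasmacytoid dendritic-like cells 4 of the 20 pathway genes were higher and none was lower (4.68% and 0.087% of all genes). Irf8, a factor that dendritic cells need, was 3106 and 1578 CPM and higher by 4.55 on the log2 scale (edgeR adjusted p = 6.99e-05). The endosomal nucleic acid sensor Tlr7 (84.2 and 55.7 CPM; 3.28) and Unc93b1, which carries such receptors to endosomes (686 and 408 CPM; 3.47), were higher too. Ifnar2 was the fourth, at 354 and 167 CPM with a log2 fold change of 2.01. As for the members, the size of such a fold change depends on the prior count where a compared class had 0 UMIs in all of its sums.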

How the data were processed

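Single-cell suspensions of 3 TH-MYCN tumors were profiled with the 10x Genomics 3′ v3.1 kit, and the submitters' processing notes name Cell Ranger 3.1.0, Seurat 3.1.5 and 3 and the mm10 build. The authors deposited raw UMI counts per gene and barcode, and also normalized matrices for the cells they kept after removal of low-quality barcodes, doublets and ambient RNA. The deposited normalized values were natural log values of 1 plus a corrected count, which came out whole within 1e-06 for 14741, 12315 and 13036 of 31053 symbols; 46.3%, 54.1% and 55.5% of the kept cells' UMIs were left. Raw counts of the kept barcodes were used here, and no further doublets were removed.

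Cells were integrated and clustered with Seurat 5.3.0 in R 4.3.3 (2000 variable genes, 30 dimensions, 20 neighbors, resolution 1; 0.5 within the mononuclear cells), after 280 genes, the members and other interferon genes among them, had been left out. A cluster was named when at least 3 markers of a class were 2-fold higher in it and found in at least 10% of its cells. Counts were summed per tumor and class with at least 10 cells, and all classes were fitted in 1 model with edgeR 4.0.16 (quasi-likelihood test, TMM factors, filterByExpr) without a block, with Benjamini-Hochberg adjustment over the 8048 genes and a threshold of 0.05. In each contrast the other classes were weighted equally. This main test treats the sums as unpaired, with 3 separate mice of 1 group as replicates, and only the block compares classes within a mouse. Every member could be named, and values in all tumors were given for the 10 most abundant and for those called in a comparison. The members and lists were chosen with earlier results of these data known.

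The classes of a tumor come from the same animal, so the tumors pair the sums, and deviations from class means correlated with a median of 0.264 (0.0108 to 0.627, 84 pairs) within tumors and −0.193 between tumors. Alternatives were DESeq2 1.42.0, RLE factors, no filter on low counts, the block, each tumor left out, resolutions of 0.5 and 2 and the authors' corrected counts. On counts simulated for the comparison of nonclassical monocyte-like cells with the other subsets (6418 genes tested), the fit recovered 0% of genes changed by 1 and 14.9% of those changed by 2 on the log2 scale; for tumor-like cells (6308 tested) it recovered 13.3% and 55.7%, and 9 of its calls (13%) were of unchanged genes. In the simulated counts all classes shared 1 mean per gene before the change. In the measured tumor-like comparison, 24 of the 31 tested members had a compared class with 0 UMIs in all of its sums. The 55.7% therefore does not describe lower calls of such members. Shares of cells were thinned to 500 UMIs per cell, and each kept cell had as many. Intervals cover counting error only. Gene positions are from GENCODE M21 and promoters from RefSeq. Mx2 was not analysed here.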

Additional observations from a re-analysis of the deposited data

Results flagged for a closer look

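Rsad2 stood out in cells that entered no comparison: in the 8 erythroid-like cells of tumor 2, too few for a sum, it had 7 UMIs in 3 cells, or 365 CPM.

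Bst2 had 163 UMIs in the 61 unnamed mononuclear cells of tumor 1, or 862 CPM, and was found in 17 of these cells, a level above that of every named class in that tumor apart from plasmacytoid dendritic-like cells. The plasmacytoid dendritic markers summed to 2839 CPM in these cells in tumor 1, compared with 493 and 482 CPM in the unnamed cells of tumors 2 and 3, and their part in the Bst2 level was not tested.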

How the results depend on the processing

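The comparisons rest on 3 tumors, and on 2 for classical monocyte-like and plasmacytoid dendritic-like cells, so small changes could be missed, as the simulated counts showed, and a sum of few cells was decided at times by 1 cell. Most members had few UMIs outside tumor 1. Resolution 0.5 kept all 14 counts of called members within 1.5 times, and resolution 2 kept 13. Resolution 2 gave 2 members lower in neutrophil-like cells in place of 1 (4.99% of all genes). DESeq2 called 18 members lower in tumor-like cells in place of 0 (11.3% of all genes). In plasmacytoid dendritic-like cells it called 2 higher and 2 lower in place of 5 and 0 (2.52% and 0.261% of all genes). RLE factors gave 3 members higher in plasmacytoid dendritic-like cells (4.08% of all genes). The authors' corrected counts gave 2 of 19 tested members higher in endothelial-like cells in place of 5 (10.7% of all genes). They also moved the mean summed level of classical monocyte-like cells to 9371 CPM and of endothelial-like cells to 3376 CPM. On the same counts it was 8825 CPM in neutrophil-like, 1662 CPM in place of 1088 CPM in NK cell-like and 902 CPM in place of 460 CPM in tumor-like cells (tumor 1 went from 978 to 2232 CPM). With no filter on low counts 43 members were tested, and the share of all genes called is given in parentheses. In tumor-like cells 6 members were lower (3.14%), in classical monocyte-like cells 4 were higher (0.391%) and in macrophage-like cells 3 were lower (0.32%). In neutrophil-like cells 15 were higher (6.12%) and 3 lower (1.85%). In plasmacytoid dendritic-like cells 3 were lower (0.228%), and in endothelial-like cells 8 were higher (9.09%) and 3 lower (0.817%). Tested genes were then 19698, but the cause of the other moves was not tested.

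The replicate block, with each tumor as 1 level, gave 5 members lower in tumor-like cells, 1 higher in classical monocyte-like cells, 2 lower in macrophage-like cells, 13 higher and 3 lower in neutrophil-like cells, 2 lower in plasmacytoid dendritic-like cells and 1 lower in endothelial-like cells, and the block moved no other count of called members by over 1.5 times. With each tumor left out in turn, members lower in tumor-like cells ranged from 0 to 1, higher in classical monocyte-like cells from 0 to 1, lower in macrophage-like cells from 0 to 1, higher in neutrophil-like cells from 1 to 7, lower in neutrophil-like cells at 0, higher in plasmacytoid dendritic-like cells from 1 to 2 and higher in endothelial-like cells from 2 to 5. Ifi44 in plasmacytoid dendritic-like cells ranged from −3.92 to 3.54 on the log2 scale. A lone sum was then assumed to vary like the other classes. With a tumor left out, 0.168% to 1.47% of all genes were lower in tumor-like cells. In neutrophil-like cells 3.6% to 4.15% were higher and 0.583% to 3.83% lower, and in endothelial-like cells 8.66% to 11.9% were higher. Leaving out the erythroid-like sums, an alternative chosen after seeing the data, gave 11 members lower in tumor-like cells and 1 lower in plasmacytoid dendritic-like cells. Leaving out the NK cell-like sum as well, also chosen after seeing the data, left 22 members tested. It gave 15 lower in tumor-like cells (15.7% of all genes) and 2 higher in endothelial-like cells (11.7%). In plasmacytoid dendritic-like cells it gave 3 higher and 1 lower (4.42% and 0.483% of all genes). Leaving out the classical monocyte-like cell with the most effector UMIs, also chosen after seeing the data, changed none of the 8 counts it bears on by over 1.5 times. Bst2, Ifitm1 and Slfn5 in endothelial-like cells kept their calls under all alternatives. Stat2 and Oasl1 kept theirs under all alternatives that gave them a value. Without tumor 1 these 2 members and Oas3 were too low to be tested, so whether their calls hold without it is not known. Isg15 kept its call in 9 of 11, Oas3 in 8 of 9, Irf7 in 8 of 12, Trim30a in 4 of 12 and Ddx58 in 3 of 10.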

Other observations

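Rsad2 was also present in the erythroid-like cells of tumor 1, with 20 UMIs in 3 of 12 cells (668 CPM), where Isg15 had 0 UMIs and the other effectors 3 in all. In tumor 3 none of the 11 erythroid-like cells held it.

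Nonclassical monocyte-like cells fell into 2 subclusters of 160, 19 and 27 cells and of 139, 20 and 38 cells in tumors 1, 2 and 3. Ifi27l2a was 103, 0 and 60.6 CPM in the first and 670.0, 83.7 and 104 CPM in the second, and Isg15 was 6.29, 16.5 and 12.1 CPM and 21.3, 46.5 and 179 CPM, so that both genes were higher in the second in each tumor, with no test. Ifitm3 had no such order, at 1297, 379.5 and 1345 CPM and 2226, 372 and 740.2 CPM.

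At the finer resolution, neutrophil-like cells fell into a cluster led by Siglecf, Csf1 and Cxcl3 (146, 26 and 13 cells) and another led by Ly6g, Ngp and Retnlg (93, 30 and 9 cells). Isg15 was alike in both, at 467, 115 and 247 CPM and 495, 119 and 295 CPM. Oas3 was 46.7, 38.5 and 0 CPM in the first and 132, 59.6 and 49.1 CPM in the second, while Ifitm1 was 3211, 3580 and 453 CPM and 2413, 965 and 3045 CPM, with no common order over the tumors.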
